A study of Mus musculus with 30 samples.

Results

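Transforming growth factor beta (TGF-beta) ligands, their receptors and a classical response gene were followed in carcinomas of Myc-transgenic mice. The genes were chosen by name: the ligands Tgfb1, Tgfb2 and Tgfb3, the activin A subunit Inhba, the receptors Tgfbr1, Tgfbr2 and Tgfbr3, and the response gene Tgfbi. Every probe annotated to 1 of them alone was taken, which gave 9 probes for the 8 genes among 22800 probes and 15096 named genes on the array. Of these, 7 probes of 7 genes had enough values to be among the 12888 probes tested. The Tgfbi probe had no value in 1 tumour extract and a second Tgfbr2 probe was measured in 9 extracts, so these 2 are given with their own numbers of extracts.

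The series held 30 two-colour arrays of total RNA from mammary carcinomas of mice transgenic for Myc, all of them hybridised against 1 common reference RNA. There were 15 tumour RNA extracts on 2 arrays each, with the extract in channel 1 on one of them and in channel 2 on the other. The extract codes carry 10 numbers, of which number 579 stands on 5 extracts, number 546 on 2 and every other number on 1, and what the number and letter mark is not given. The labels describe 25 arrays by epithelial-to-mesenchymal transition (EMT) and 5 by tumour progression. All extracts share the Myc transgene, no untransformed mammary tissue was analysed here, and the promoter of the transgene, the strain, the age and the makeup of the reference RNA are not stated by the labels. Nothing says that the extracts came from separate animals. The p-values of tests on extract means below therefore measure only the spread between extracts, which may be technical. Those of the F-tests set extracts against the disagreement of their paired arrays, which is array noise. None of these p-values includes any spread of the reference.

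TGF-beta ligands are secreted bound to latency proteins, and once released they assemble the type II receptor with the type I receptor, which phosphorylates Smad transcription factors. In mammary epithelium the pathway is known for restraining growth, and in carcinomas also for matrix production and for driving EMT. Activins, dimers of inhibin beta subunits such as Inhba, signal through sister receptors to the same Smads.

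The deposited values were log2 ratios of the 2 channels, and which channel was divided by which is not stated. Each ratio was turned so that all arrays run the same way, and the direction is given by Myc itself: its probe had a mean log2 ratio of 3.16 ± 0.37 (SD, n = 15 extracts) and was on the same side of 0 in 15 of 15. Positive values are called the Myc side below and negative values the opposite side. Because the design rests on a Myc transgene, positive values probably mean more RNA in the extract than in the reference, which no label states. The log2 scale was read from the values, the arrays had not been centred (their medians ran between -1.14 and 0.42), and arrays carried between 13434 and 21991 measured values. The mammary carcinoma label was set against epithelial markers such as keratins and claudins. Of these, 14 of 14 tested passed on the Myc side with a median mean ratio of 2.40, where 33.5% of all genes tested did. A ratio cannot show how abundant the markers are.

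Against the reference, 1 member passed on the Myc side, the ligand gene Tgfb3, and 1 on the opposite side, the co-receptor gene Tgfbr3. Over all probes tested 30.4% passed above 0 and 16.9% below it (limma, Benjamini-Hochberg adjusted p under 0.05), so these shares, 1 of 7 on each side, are no more than the background. Outside that test, the Tgfbi probe also passed on the Myc side in a fit without the filter on missing values. There 29.8% of 22800 probes passed on either side. Between extracts, 2 members differed by more than the paired arrays did, Inhba and Tgfbr3, where 6.73% of all probes passed (F-test adjusted p under 0.05). The plot of every member by extract shows both arrays of each tumour and the gap between them.

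**Figure D1:**
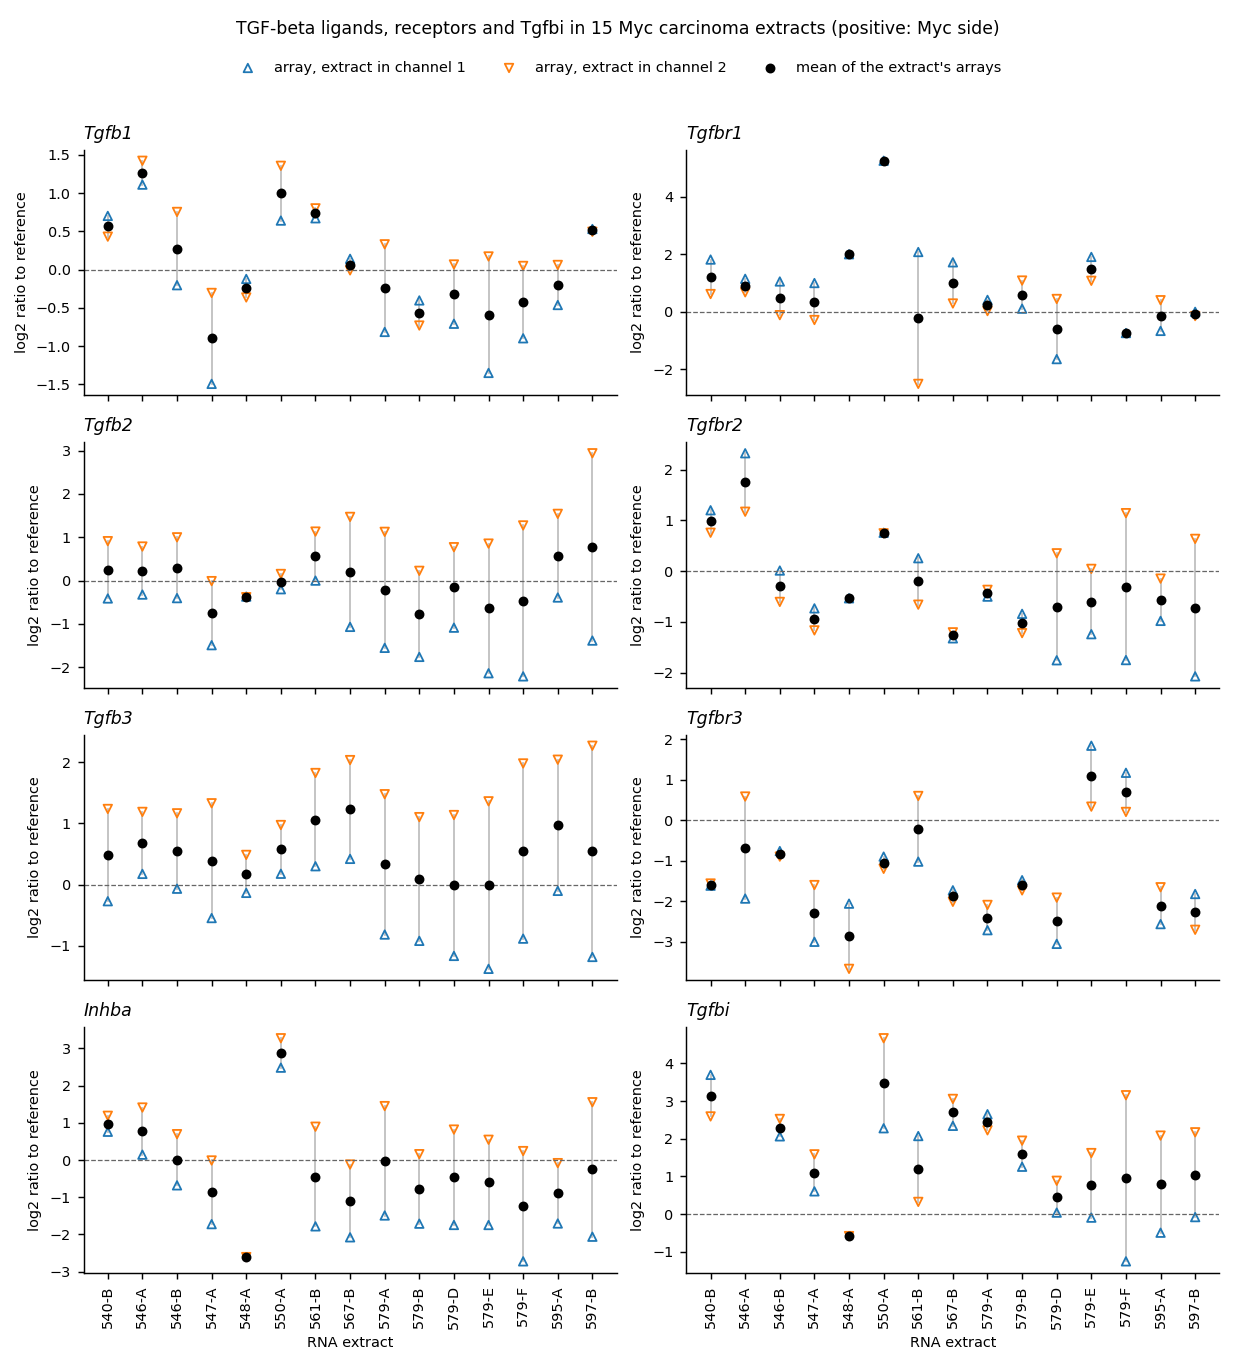
Log2 ratio to the reference (y axis, positive for the Myc side) of each member in each of the 15 extracts (x axis); triangles are the single arrays, with the extract in channel 1 pointing up and in channel 2 pointing down, and black points are the means of an extract's arrays. Inhba and Tgfbi were highest in 550-A, Tgfbr3 was above 0 in 579-E and 579-F alone, and for Tgfb3 the channel 2 array lay above the channel 1 array in 15 of 15 extracts.

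The promoters of Tgfb1, Inhba, Tgfbr2 and Tgfbi are shown because these 4 members each passed in the comparison with the response genes over the extracts, given further on. They are the 250 bases before the annotated start, read 5′ to 3′ from RefSeq, build GRCm38.p6. Capitals mark the Smad box, the motif that Smad proteins bind, with the letters CAGAC on either strand (GTCTG when on the other strand).

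Tgfb1, chr7:25686752-25687001, plus strand: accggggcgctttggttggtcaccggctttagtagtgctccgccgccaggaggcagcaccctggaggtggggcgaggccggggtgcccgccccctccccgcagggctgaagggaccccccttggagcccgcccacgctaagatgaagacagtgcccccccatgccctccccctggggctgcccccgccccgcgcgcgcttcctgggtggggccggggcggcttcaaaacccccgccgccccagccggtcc

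Inhba, chr13:16011601-16011850, plus strand: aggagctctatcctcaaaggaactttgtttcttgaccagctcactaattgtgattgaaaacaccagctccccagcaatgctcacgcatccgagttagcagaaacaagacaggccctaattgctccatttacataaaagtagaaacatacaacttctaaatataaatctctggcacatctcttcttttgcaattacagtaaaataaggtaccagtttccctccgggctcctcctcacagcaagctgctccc

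Tgfbr2, chr9:116175364-116175613, minus strand: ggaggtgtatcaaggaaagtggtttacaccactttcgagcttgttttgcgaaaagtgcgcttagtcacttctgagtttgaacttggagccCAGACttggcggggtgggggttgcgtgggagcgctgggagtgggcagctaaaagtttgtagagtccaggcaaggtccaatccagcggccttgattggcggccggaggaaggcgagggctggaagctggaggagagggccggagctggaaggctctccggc

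Tgfbi, chr13:56609336-56609585, plus strand: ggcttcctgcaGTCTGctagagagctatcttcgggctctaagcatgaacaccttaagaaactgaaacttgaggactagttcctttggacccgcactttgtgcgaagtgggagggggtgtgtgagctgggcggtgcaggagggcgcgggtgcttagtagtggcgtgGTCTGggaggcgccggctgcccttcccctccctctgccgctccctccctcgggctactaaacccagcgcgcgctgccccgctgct

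Of these windows, that of Tgfbi held 2 Smad boxes, that of Tgfbr2 held 1 and those of Tgfb1 and Inhba held 0, where 42.2% of 32851 mouse promoter windows of the same length held at least 1 and 11.7% held 2 or more. The Tgfb2 window held 2, and the 2 windows of Tgfbr1 held 0 and 1. The AP-1 motif TGANTCA, searched on both strands, was in none of the members' windows and in 6.75% of all. RefSeq entries were matched for 6 members. A match of letters is no binding site, and no match says nothing of regions outside the window. Both motifs were chosen because TGF-beta signals are known to act through Smads and AP-1.

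Tgfb1 encodes the most widely expressed of the TGF-beta ligands. Its ratio ran from -0.90 in 547-A over a median of -0.20 to 1.27 in 546-A, with 1.00 in 550-A next. It lay above 0 in 7 extracts and below it in 8. Its mean was 0.06 ± 0.64 (SD, n = 15), which did not pass limma's test against 0 (adjusted p = 0.774), and the sign of that mean turned without 546-A (-0.02). The paired arrays ranked the extracts alike (r = 0.65 across 15 extracts, a description of technical repeats), but the F-test between extracts missed the threshold (adjusted p = 0.0644). Arrays with the extract in channel 2 averaged 0.30 ± 0.60 and arrays with it in channel 1 averaged -0.18 ± 0.80 (SD, n = 15 arrays each). The F-test passed when only probes measured on all arrays were tested (adjusted p = 0.0271), and the range over the settings tried was 0.0271 to 0.338.

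Tgfb2 encodes the second ligand, which needs the co-receptor Tgfbr3 for efficient binding to the type II receptor. Its extract values ran from -0.77 in 579-B over a median of -0.02 to 0.78 in 597-B. The mean was -0.03 ± 0.50 (SD, n = 15), with limma's adjusted p = 0.858 against 0 and an F-test adjusted p = 0.835 between extracts. The 2 orientations disagreed: arrays with the extract in channel 2 averaged 0.92 ± 0.79 and arrays with it in channel 1 averaged -0.99 ± 0.74 (SD, n = 15 arrays each), and each orientation alone passed limma's test, on opposite sides. In 12 of 15 extracts the paired arrays lay on opposite sides of 0.

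Tgfb3 encodes the third ligand, known in the mouse mammary gland for its rise when milk removal stops. It ran from -0.01 in 579-D over a median of 0.54 to 1.23 in 567-B, with 1.06 in 561-B next, and 13 of 15 extracts were on the Myc side. The mean was 0.51 ± 0.37 (SD, n = 15; limma adjusted p = 0.000786), and leaving out any 1 extract kept it between 0.46 and 0.54 with the call unchanged. The call did not hold in both orientations: arrays with the extract in channel 2 averaged 1.44 ± 0.49, all 15 on the Myc side, and arrays with it in channel 1 averaged -0.43 ± 0.59 (SD, n = 15 arrays each), past the threshold on the opposite side (limma adjusted p = 0.0286). Over that gene's settings the adjusted p ran from 2.55e-07 to 0.0286, so its side depends on averaging the 2 orientations. Extracts were not told apart by this probe (F-test adjusted p = 0.804).

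Inhba encodes the beta A subunit shared by activin A and inhibin A. Its ratio ran from -2.61 in 548-A, measured on 1 array there, over a median of -0.46 to 2.88 in 550-A, far above 0.98 in 540-B and 0.78 in 546-A. It was above 0 in 4 extracts and below it in 11. The mean was -0.31 ± 1.22 (SD, n = 15; limma adjusted p = 0.414). In 550-A the 2 arrays gave 3.28 and 2.48, and across the 14 pairs the arrays ranked the extracts alike (r = 0.78, a description). Inhba was the member with the lowest F-test adjusted p between extracts (0.00525), a call that was lost without 550-A (0.0601) and with no dye term in the fit (0.975). Leaving out each extract in turn gave 0.00261 to 0.0601. Its orientations also stood apart, with 0.63 ± 1.25 on 15 channel 2 arrays and -1.15 ± 1.39 (SD) on 14 channel 1 arrays.

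The gap between orientations was common on this platform, as the plot of means by orientation shows for the members. Channel 2 minus channel 1 means were 1.91 for Tgfb2, 1.86 for Tgfb3 and 1.78 for Inhba on the log2 scale, and lay between -0.90 and 0.86 for the other 5 genes on their main probes. Over all tested probes the median gap was 0.30 and 5% to 95% of probes lay between -0.93 and 3.13. Averaging the paired arrays cancels a gap that is equal and opposite in the 2 orientations, and whether the gap is of that kind was not tested.

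**Figure D2:**
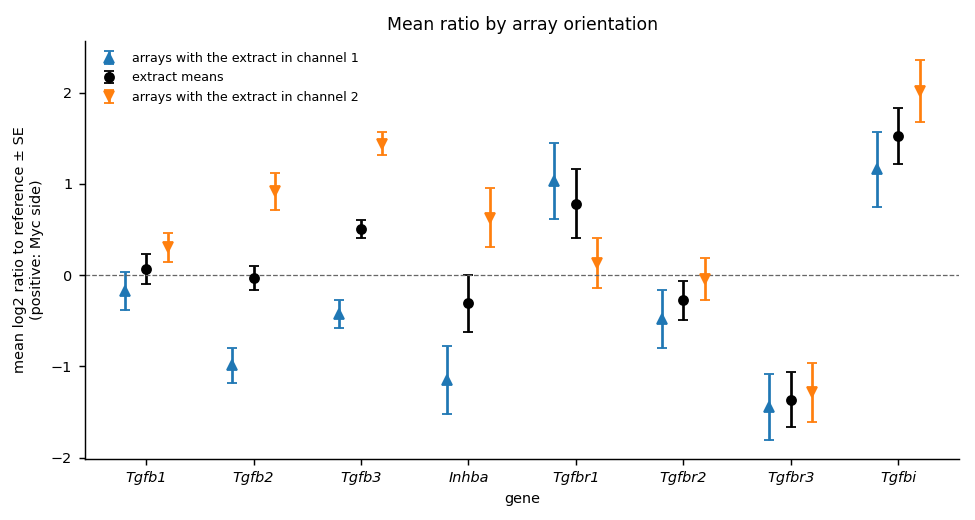
Mean log2 ratio to the reference (y axis, error bars are SE) for each member (x axis) over the arrays with the extract in channel 1, over the extract means, and over the arrays with the extract in channel 2. Tgfb1, Tgfb2, Tgfb3 and Inhba lie on opposite sides of 0 in the 2 orientations, while Tgfbr3 and Tgfbi keep their side.

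Tgfbr1 encodes the type I receptor kinase. Its values ran from -0.74 in 579-F over a median of 0.47 to 5.25 in 550-A, with 2.0 in 548-A next, and those 2 highest values each rest on 1 array. It was above 0 in 10 extracts and below it in 5. The mean was 0.78 ± 1.45 (SD, n = 15) and missed the threshold (limma adjusted p = 0.0707). It passed without 579-F (0.89, adjusted p = 0.0475), and the range over single extracts left out was 0.0475 to 0.119. Channel 1 arrays averaged 1.03 ± 1.63 (SD, n = 15) and passed alone (limma adjusted p = 0.0297). Channel 2 arrays averaged 0.13 ± 0.94 (SD, n = 12) and did not pass (limma adjusted p = 0.677). The values of 550-A and 548-A come from channel 1 arrays. Intensities were not analysed here, and 51.9% of the measured values of Tgfbr1 equal a ratio of 2 whole numbers no larger than 20, against 33.6% over all probes. The paired arrays did not rank the extracts alike (r = -0.27 over 12 pairs, a description), and the F-test did not separate extracts (adjusted p = 0.244).

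Tgfbr2 encodes the type II receptor, the kinase that binds ligand first. Its main probe ran from -1.27 in 567-B over a median of -0.54 to 1.75 in 546-A, and 3 extracts, 546-A, 540-B (0.98) and 550-A (0.75), were above 0 while the other 12 were below it. The mean was -0.28 ± 0.82 (SD, n = 15; limma adjusted p = 0.279). Without 546-A the gene passed on the opposite side (-0.42, adjusted p = 0.0391), where the other leave-outs gave up to 0.443. Extracts were not told apart beyond array noise (F-test adjusted p = 0.409). The second Tgfbr2 probe had values on 12 arrays and averaged 0.70 ± 1.43 (SD, n = 9 extracts; limma adjusted p = 0.277), with 58.3% of them small-number ratios. It was highest in 579-F (3.20) and was not measured in the 3 extracts where the main probe was highest, so the probes could not be compared there.

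Tgfbr3 encodes betaglycan, the co-receptor that presents ligand and that also lets inhibin block activin receptors. Its ratio ran from -2.86 in 548-A over a median of -1.60 to 1.09 in 579-E, and it was below 0 in 13 extracts. Only 579-E and 579-F (0.69) were on the Myc side, in all 4 of their arrays, while 579-D, of the same number, was at -2.48. The mean of -1.36 ± 1.18 (SD, n = 15) passed on the opposite side (limma adjusted p = 0.000712). It stayed between -1.59 and -1.28 in every other setting tried and between -1.54 and -1.26 with each extract left out, always past the threshold, and both orientations gave it (-1.28 ± 1.25 in channel 2 and -1.44 ± 1.39 in channel 1, SD, n = 15 arrays each). The F-test between extracts passed narrowly (adjusted p = 0.0468) and did not hold up: it was lost in 14 of 15 fits that left out 1 extract, the range being 0.0243 to 0.113, and with array medians subtracted (0.187).

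Tgfbi encodes a secreted matrix protein named for its induction by TGF-beta. Over the 14 extracts that had a value, it ran from -0.59 in 548-A over a median of 1.14 to 3.47 in 550-A, with 3.14 in 540-B next, and 13 of 14 were on the Myc side. The mean was 1.53 ± 1.14 (SD, n = 14), past the threshold in the fit without the filter on missing values (limma adjusted p = 0.0007), with 2.02 ± 1.28 on 14 channel 2 arrays and 1.16 ± 1.48 (SD) on 13 channel 1 arrays. Between the 14 extracts without 546-A the F-test did not pass (adjusted p = 0.377).

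Number 579 was set against the other numbers, since it stands on the most extracts. No probe passed (0% of 12888), by limma's adjusted p, with 460 probes or 3.57% at an unadjusted p under 0.05. Tgfb1 was -0.24, -0.57, -0.32, -0.59 and -0.42 in 579-A, 579-B, 579-D, 579-E and 579-F, and ran from -0.90 over a median of 0.40 to 1.27 in the other 10 extracts. Tgfb2 was -0.21, -0.77, -0.16, -0.64 and -0.47 in the same extracts of number 579, and ran from -0.75 over 0.24 to 0.78 in the others. Tgfb3 was 0.33, 0.09, -0.01, -0.01 and 0.55, and ran from 0.18 over 0.56 to 1.23 in the others. All 3 ligands thus averaged lower in number 579, with overlapping groups: by -0.74 for Tgfb1, -0.62 for Tgfb2 and -0.48 for Tgfb3. The size depended on the orientation. On channel 1 arrays alone the differences were -0.99 for Tgfb1, -1.15 for Tgfb2 and -0.91 for Tgfb3. On channel 2 arrays alone they were -0.49 for Tgfb1 and only -0.10 for Tgfb2 and -0.04 for Tgfb3. These 3 genes were among those under 0.05 without adjustment, and limma's adjusted p rounds to 1.00 for each. The other tested members differed by between -0.88 (Tgfbr1) and 0.63 (Tgfbr3), none of them under 0.05 even without adjustment.

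The tumour progression description (550-A and 561-B) was set against the EMT description (12 extracts), leaving out 595-A, whose arrays carry 1 of each. A single probe of 12888 passed (0.00776%), the uncharacterised 4930404H24Rik, which was named after its value was seen, and 525 had an unadjusted p under 0.05. It is no member. Inhba averaged higher under tumour progression by 1.73 (limma adjusted p = 1.00), but the 2 extracts were far apart, at 2.88 in 550-A and -0.44 in 561-B, and without 550-A the difference was 0.07. Tgfbr1 behaved alike, with 5.25 and -0.21 in these extracts, and its difference of 1.95 (adjusted p = 1.00) became -0.78 without 550-A. Tgfb1 was above 0 in both, at 1.00 in 550-A and 0.74 in 561-B, against -0.90 to 1.27 under EMT. Its difference of 0.92 did not pass either, and stayed between 0.79 and 1.05 with each extract left out. The other tested members differed by between 0.40 (Tgfb3) and 0.79 (Tgfbr3), without passing.

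The members were then compared with each other over the extracts, in 28 pairs with 2-sided permutation p-values adjusted over the pairs. By Pearson's r, 6 pairs passed, and how many pairs of other genes would pass was not computed. Tgfb1 went with Tgfbr2 (r = 0.77, rho = 0.67, permutation adjusted p = 0.0126), with Tgfb2 (r = 0.70, rho = 0.77, permutation adjusted p = 0.0317) and with Inhba (r = 0.66, rho = 0.67, permutation adjusted p = 0.0317). Inhba went with Tgfbi (r = 0.79, rho = 0.61, n = 14, permutation adjusted p = 0.0126) and with Tgfbr2 (r = 0.67, rho = 0.62, permutation adjusted p = 0.0387). Tgfb2 went with Tgfb3 (r = 0.68, rho = 0.64, permutation adjusted p = 0.0328). Members read on the same array share its noise. Crossing the arrays (1 gene on channel 1, the other on channel 2) gave this pair r = -0.25 and -0.19. Crossed alike, Tgfb1 had r = 0.36 and 0.65 with Tgfbr2, 0.21 and 0.54 with Tgfb2, and 0.36 and 0.67 with Inhba. Inhba had 0.58 and 0.38 with Tgfbi, and 0.38 and 0.33 with Tgfbr2.

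The number of pairs that passed depended on the setting. By Spearman's rho 1 pair passed, Tgfb1 with Tgfb2 (permutation adjusted p = 0.0370), while rho lay between 0.61 and 0.77 over the 6 pairs. Without the 2 extracts farthest from the median of the first gene, 2 pairs passed: Inhba with Tgfbr2 had r = 0.83 and Tgfb1 with Tgfb2 had 0.86. Tgfb2 with Tgfb3 then had r = 0.71, Inhba with Tgfbi 0.56, Tgfb1 with Tgfbr2 0.52 and Tgfb1 with Inhba 0.45. With number 579 and number 546 averaged, over 10 numbers, 0 passed, with 6 of 6 still positive in sign (r from 0.63 to 0.83). On channel 2 arrays alone Tgfb1 with Tgfb2 had r = 0.21.

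The extracts 540-B, 546-A and 550-A were highest in Tgfbr2 and Inhba and had the highest means of the 34 TGF-beta response genes measured (a list of textbook targets such as Fn1, Ccn2 and collagen chains): 0.91 in 546-A, 0.64 in 550-A and 0.22 in 540-B, against -0.42 to -2.06 in the other 12. They also held the highest fibroblast marker means, over 11 of 16 listed markers measured: 0.46 in 550-A, 0.43 in 546-A and 0.09 in 540-B, against -0.81 to -3.14 in the others. Of these markers, Fap ran the other way, lowest in 546-A (-2.55) and highest in 548-A (1.81). The height of 546-A was not particular to these lists. It ranked 1 in the macrophage, pericyte and smooth muscle, and lymphocyte means, 2 in the epithelial and skeletal muscle means and 8 in the endothelial mean. It was highest for 23.0% of all genes, and 4021 tested probes had only 1 of its arrays. The ranks of 540-B were 1 endothelial, 2 pericyte and smooth muscle, 3 macrophage, 8 epithelial, 9 lymphocyte and 10 skeletal muscle. Those of 550-A were 3 pericyte and smooth muscle, 6 endothelial, 7 lymphocyte, 8 macrophage, 11 epithelial and 13 skeletal muscle. In bulk tumour RNA, fewer cells of a type and less RNA per cell cannot be told apart. The fibroblast list shares 3 genes with the response list (Col1a1, Col1a2 and Col3a1), 8.82% of the response list and 27.3% of the markers, and its part in the members' values was not tested.

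Each member was set against 6 list means, the 5 cell type lists and the response list, in 48 relations adjusted together. Of these, 12 passed by r, all for Tgfb1, Inhba, Tgfbr2 and Tgfbi, the genes plotted against the response genes. How many of all genes would pass with the same lists was not computed, so this count has no background beside it. Tgfbr2 with the response genes had r = 0.83 and rho = 0.74 (permutation adjusted p = 0.00384), and Inhba with them r = 0.81 and rho = 0.74 (permutation adjusted p = 0.00384). Tgfbi had r = 0.80 and rho = 0.70 (n = 14, permutation adjusted p = 0.00536), and Tgfb1 r = 0.72 and rho = 0.55 (permutation adjusted p = 0.0122). The fibroblast markers gave nearly the same values: r = 0.80 for Tgfbr2, 0.79 for Inhba, 0.79 for Tgfbi and 0.68 for Tgfb1, with permutation adjusted p from 0.00384 to 0.0214. Crossing the arrays gave r with the response genes of 0.69 and 0.28 for Tgfbr2 and 0.72 and 0.55 for Inhba. It gave 0.38 and 0.56 for Tgfbi and 0.47 and 0.71 for Tgfb1. With the fibroblast markers it gave 0.83 and 0.32 for Tgfbr2 and 0.78 and 0.65 for Inhba. There Tgfbi had 0.59 and 0.62 and Tgfb1 had 0.57 and 0.72.

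Without 540-B, 546-A and 550-A, r with the response genes was 0.30 for Tgfbr2, 0.58 for Inhba, 0.60 for Tgfbi and 0.26 for Tgfb1, and none of those 4 passed (permutation adjusted p between 0.31 and 0.731). The same held for the fibroblast markers, with r between 0.23 and 0.58. Those 3 extracts were chosen after their values were seen, as the 3 highest in the mean of the response genes, and leaving them out narrows the range. Without the 2 extracts farthest in each gene, none of these 8 relations passed, although Inhba kept r = 0.72 with the response genes and 0.71 with the fibroblast markers (permutation adjusted p = 0.0512 for each). With 1 mean per number, over 10 numbers, Inhba, Tgfbr2 and Tgfbi passed with both lists, with r between 0.85 and 0.92. Tgfbr3 did not pass with the response genes by r (0.47, permutation adjusted p = 0.171) but did by rho (0.72, permutation adjusted p = 0.0224) and, without 579-E and 579-F, by r (0.76, permutation adjusted p = 0.0435). It behaved alike with the fibroblast markers: r = 0.51 (permutation adjusted p = 0.143) and rho = 0.70 (permutation adjusted p = 0.0238). Without 579-E and 579-F their r was 0.75 (permutation adjusted p = 0.0474).

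**Figure D3:**
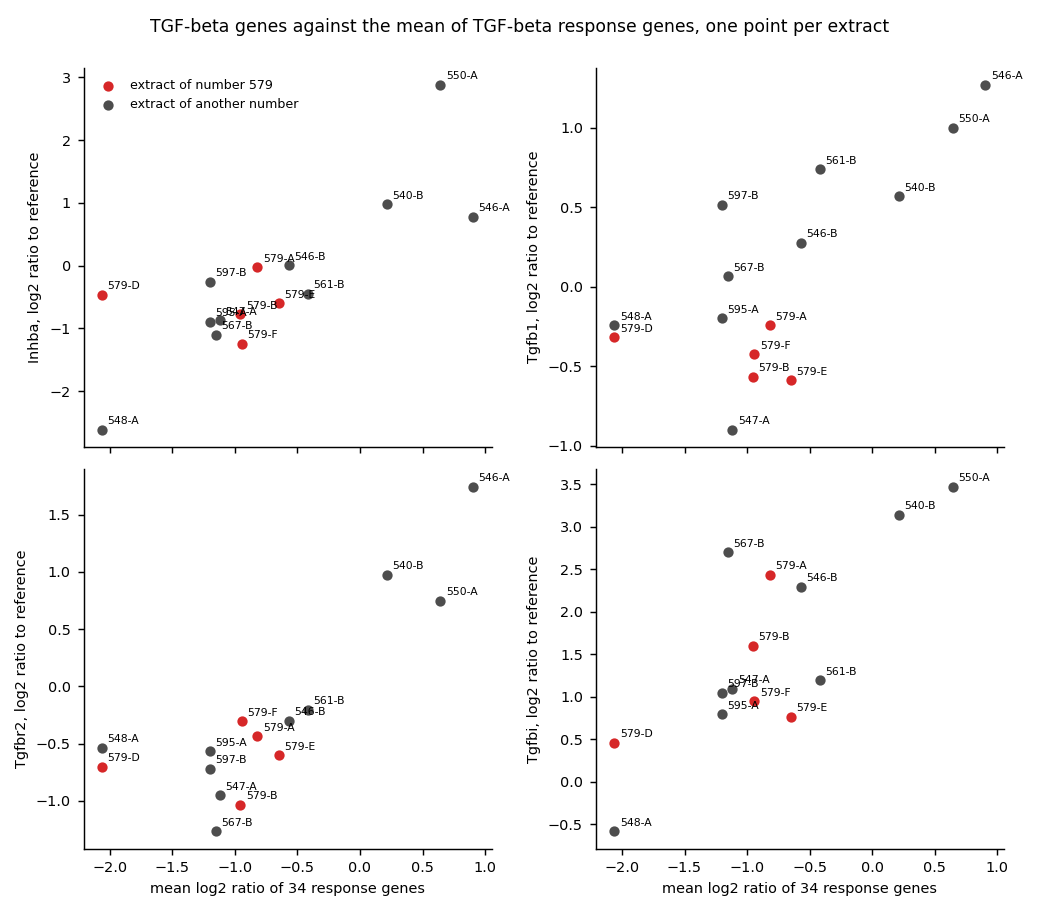
Log2 ratio to the reference of Inhba, Tgfb1, Tgfbr2 and Tgfbi (y axes) against the mean log2 ratio of 34 TGF-beta response genes (x axis), 1 point per extract, red for number 579 and grey for the other numbers. The extracts 540-B, 546-A and 550-A lie at the upper right in the panels where they were measured, and 548-A and 579-D lie at the far left.

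Tgfbi also passed with markers of other cell types. It went with the endothelial markers (r = 0.80, rho = 0.79, n = 14, permutation adjusted p = 0.00536) and the macrophage markers (r = 0.75, rho = 0.85, permutation adjusted p = 0.0122). Both held without 540-B and 550-A (r = 0.83 and 0.82, permutation adjusted p = 0.0278 for each), and neither held on channel 2 arrays alone (r = 0.63 and 0.33). Crossing the arrays gave r = 0.40 and 0.21 with the endothelial markers and 0.58 and 0.16 with the macrophage markers. Pericyte and smooth muscle markers passed with Tgfbr2 (r = 0.70) and Tgfbi (r = 0.69), and neither held without the 2 farthest extracts. Crossed arrays gave r = 0.47 and 0.16 for Tgfbr2 and 0.24 and 0.44 for Tgfbi. The epithelial markers passed with none of the 8 members.

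The genes most like each member were found from the lower of 2 correlations across arrays, the member on one orientation against the gene on the other, among 5086 genes, and are given as a description over 15 extracts. Nearest to Tgfb1 were the tubulin gene Tuba1a (0.71), the collagen VI gene Col6a1 (0.71) and fibronectin, Fn1 (0.70), all highest in 546-A and 550-A. Nearest to Inhba were tropomyosin Tpm2 (0.72), galectin-1, Lgals1 (0.72), and the cell cycle inhibitor Cdkn1a (0.72), which was also highest in 550-A (1.33) and lowest in 548-A (-2.12). For Tgfbr2 they were Col6a2 (0.61), Itm2c (0.60) and the urokinase receptor gene Plaur (0.60), all highest in 546-A. For Tgfbr3 they were Esyt2 (0.67), the basement membrane gene Nid1 (0.65) and C1qtnf6 (0.65), and of these Nid1 shared its 2 highest extracts, with 1.24 in 579-F and 0.15 in 579-E. Tgfb3 (Ddx4, Ccdc77 and Irx2, 0.53 to 0.64), Tgfb2 (Pde4a, 4930419G24Rik and Irx2, 0.42 to 0.47) and Tgfbr1 (Ajuba, Prl2c4 and Nfe2l2, 0.42 to 0.54) had paired arrays of their own that correlated below 0. The nearest gene's value exceeded the member's own paired-array correlation for every member given here but Inhba (0.78).

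Around the members, 122 genes of the pathway were listed in 6 groups by role, and 91 were tested. Of these 20 passed above 0, 34 below 0 and 37 on neither, with a median mean ratio of -0.13, while over all 9919 genes 3322 passed above 0, 1476 below it and the median was 0.16. With array medians subtracted the 91 genes split into 18 above and 37 below 0. Between extracts 28 of the 91 passed the F-test (30.8%), against 7.21% of all genes. The lists were chosen with earlier results of these data known, so this share is a description. The response list held 17 of these calls and the latency list 8. Smads and partners, negative regulators, and ligands and antagonists held 1 each and the receptors 0.

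The proteins that hold TGF-beta latent or release it lay mostly on the opposite side: 7 of 14 passed below 0 and 2 above it. These are 50% and 14.3%, against 14.9% and 33.5% of all genes. The proteoglycans decorin, Dcn (-1.96), and biglycan, Bgn (-1.40), and the latency binding protein Ltbp1 (-1.33) had the largest means. The gelatinase gene Mmp2 averaged -1.06 and varied most, from -3.15 in 579-D to 1.95 in 546-A (F-test adjusted p = 0.000129), and 8 of the 14 passed that test. Dcn also stands on the fibroblast list.

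Of 11 Smads and partners tested, 3 passed above 0 (27.3%) and 4 below it (36.4%), against 33.5% and 14.9% of all genes. Those passing included the receptor-activated Smad3 (-0.78, on the opposite side in 15 of 15 extracts), the BMP-pathway Smad5 (0.48) and the endocytic adaptor Dab2 (-0.96). Smad5 changed side with orientation, at -0.24 on channel 2 arrays and 1.19 on channel 1 arrays.

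Negative regulators were led by Pmepa1, a Smad-binding membrane protein that TGF-beta induces, at 2.58 and on the Myc side in 15 of 15 extracts. It ran from 0.08 in 579-D to 3.76 in 546-A (F-test adjusted p = 0.00634). The pseudoreceptor gene Bambi (1.37) and the ubiquitin ligase gene Nedd4l (0.86) followed. In all, 3 of 13 passed above 0 (23.1%) and 2 below it (15.4%), against 33.5% and 14.9% of all genes. Bambi was highest in 579-A (4.07) and 579-B (2.64) and lowest in 550-A (-0.42).

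Among activin, inhibin and BMP ligands and antagonists, 5 of 14 passed above 0 (35.7%) and 2 below it (14.3%). These shares are near those of all genes, 33.5% and 14.9%. The inhibin alpha subunit gene Inha averaged 1.42 and the BMP antagonist Nog 0.97, while the follistatin-like gene Fstl1 averaged -1.76 and ran from -4.32 in 579-D to 1.58 in 546-A. Of 5 activin and BMP receptor genes tested, 2 passed above 0 (40%) and none below it by limma's adjusted p. Of all genes 33.5% passed above 0 and 14.9% below it. These 2 receptors were the type I receptor Acvr1b (1.09) and the type II receptor Acvr2b (1.07), both with higher means on channel 2 arrays.

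The response genes lay on the opposite side for the most part: 19 of 34 passed below 0 (55.9%) and 5 above it (14.7%). The other 10 did neither, and the median mean ratio was -0.79. Over all genes 14.9% passed below 0 and 33.5% above it. The list was not split by whether TGF-beta raises or lowers a gene, so its side gives no direction of response. The largest means were those of the chromatin protein Hmga2 (-4.39), the collagen crosslinking enzyme Lox (-3.45) and the EMT transcription factor Zeb1 (-2.55), each below 0 in 15 of 15 extracts. Tgfbi, at 1.53, thus lay on the other side from most of this list. The response genes also varied, 17 of 34 passing the F-test (50%), most widely tenascin C, Tnc, which ran from -3.53 in 579-D to 4.53 in 546-A with 4.35 in 550-A, and Col3a1, from -4.54 in 579-D to 1.62 in 546-A. In all, 27 of the 34 (79.4%) were highest in 546-A or 550-A, where 546-A alone was highest for 23.0% of all genes and 550-A for 3.40%. The extract 546-A was also 1 of the 2 with the fewest measured values.

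**Figure D4:**
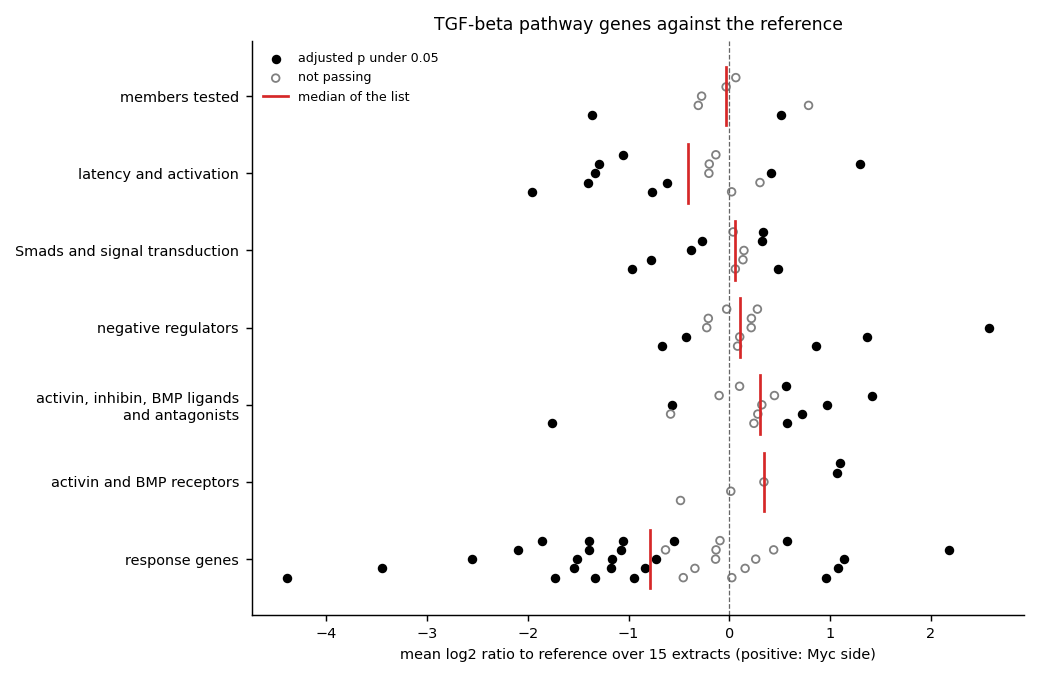
Mean log2 ratio to the reference over 15 extracts (x axis, positive for the Myc side) of each tested gene, by group (y axis); filled points passed limma's adjusted p under 0.05, open points did not, and red lines are group medians. The response genes centre at -0.79 and the latency genes at -0.41, and the other groups have medians between -0.03 and 0.34.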

How the data were processed

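The arrays measured mammary carcinoma RNA against a common reference RNA. The deposited values are log2 ratios per probe, made by the authors by steps not given in the sources used here. That they are log2, and that 16.61 stands for a missing value, was read from the values, of which 84.8% were measured. Intensities, dyes and depth per probe were not available in this table, so the number of arrays limits the precision.

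Ratios were turned to one direction and the 2 arrays of an extract averaged. Probes with values on at least 24 of 30 arrays and 1 array of every extract were tested. With R 4.3.3 and limma 3.58.1, the 15 extract means were tested against 0, extracts were compared by an F-test on the 30 arrays with a dye term, and number 579 and the tumour progression description were each tested against the rest. Adjusted p-values of these tests are Benjamini-Hochberg values over all 12888 probes, with a threshold of 0.05. Alternative fits were adjusted over the probes each of them tested, 22800 in the fit without the filter on missing values. The fits were tested on simulated data with independent noise and no gap between orientations, so that test does not cover the gap seen here. Correlations used 100000 permutations (Python 3.11.15, numpy 2.4.6). A gene with several probes was represented by the one with most measured arrays, and probes were named from the platform annotation, in which 134 name several genes and were left unnamed.

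The members and gene lists were chosen with earlier results of these data known. All member probes are named. Of each pathway list the text names up to 3 genes with the largest mean among those past the threshold and up to 2 with the largest spread among those past the F-test, and for each member the 3 genes most like it, among genes with at least 13 extracts on both arrays and an SD of at least 0.5. Of the listed genes not tested, 16 had probes with too few values and 15 had no probe of their own. Of the other marker lists, 0 of 6 lymphocyte and 0 of 7 skeletal muscle genes passed above 0, with 3 and 1 below it. Pericyte and smooth muscle genes had 1 of 8 above and 2 below, macrophage genes 6 and 1 of 9, endothelial genes 5 and 0 of 5, and fibroblast genes 0 and 9 of 11 (limma). Over all genes tested 33.5% passed above 0 and 14.9% below it. The alternatives tried were array medians subtracted, either orientation alone, other filters, 1 mean per number, the number as a random block, and leaving out each extract.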

Additional observations from a re-analysis of the deposited data

Results flagged for a closer look

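Tgfbr1 in 550-A stood apart from the other extracts of numbers other than 579: it had a log2 ratio of 5.25, the next highest of those 10 extracts was 2.0 in 548-A, and the gap was 0.595 of the whole range, against a critical value of 0.466 by Dixon's test. Both values rest on 1 array each. It was the only such extract in 16 groups tested (8 genes in number 579 and in the other numbers), where chance flags about 1 in 20.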

How the results depend on the processing

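Tgfbr3 kept its side and its call against the reference in every alternative run, and Tgfb3 in all but channel 1 arrays alone, where it turned (-0.43). With channel 1 arrays alone 5 of 7 members passed in place of 2, where 57.7% of 12888 probes passed. With probes measured on all arrays 4047 of 6801 probes passed (59.5%) in place of 6088 of 12888. Tgfb1's mean, never past the threshold, turned with array medians subtracted (-0.031), on channel 1 arrays (-0.18), and over extracts left out (-0.023 to 0.13). Tgfb2's turned on channel 2 arrays (0.92), with 1 mean per number (0.10), and over extracts left out (-0.091 to 0.020), and Inhba's on channel 2 arrays (0.63). Between extracts, 393 probes and 0 members passed without a dye term, 472 probes without the 2 thinnest extracts, and between 568 (without 546-A) and 1172 over extracts left out. With the filter set on the other 28 arrays instead, an alternative chosen after seeing the data, 538 passed, or 458 with array medians subtracted. Of the 2 members called there, 1 kept the call with array medians subtracted, and 0 to 2 kept it over extracts left out. For number 579, differences turned on channel 2 arrays for Inhba (0.023), Tgfbr1 (0.79) and Tgfbr2 (0.043). For tumour progression, Tgfb2 (-0.27) and Tgfbr1 (-2.87) turned there too, Tgfbr1 also over extracts left out (-0.78 to 4.68), and 0 probes passed in the other settings (0 to 4 over extracts left out). Of 6 correlated pairs, 1 passed by rho, 2 on channel 2 arrays, 2 without the 2 farthest extracts, 0 by number and 1 without 540-B, 546-A and 550-A (rho and the last were added after seeing the data). Of all 48 relations with list means, 12 passed, and 4 on channel 2 arrays, 4 without the 2 farthest extracts and 2 without those 3. Of the 12 themselves, 12 passed with array medians subtracted, 11 on channel 1 arrays, 10 by rho, 9 by number, 3 on channel 2 arrays, and 2 in each of the other settings. No paired analysis was possible because the replicate index of an array only tells the 2 arrays of an extract apart and pairs no extracts. The causes were not tested. Signal over background was not analysed here.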
